A study of Mus musculus with 21 samples.

Results

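The miR-193 and miR-365 miRNAs of the mouse were followed through development of the cochlea and of the superior olivary complex (SOC), the first brainstem station that combines input from both ears. Their 7 mature products, picked by name from the 1647 miRNAs listed, were miR-193a-3p, miR-193a-5p, miR-193b-3p, miR-193b-5p, miR-365-3p, miR-365-1-5p and miR-365-2-5p. They were chosen from these data with their time courses in both organs already known, so all comparisons of them, between stages, arms, library sets or organs, are descriptions. Where a product is said to meet a threshold of a fit across all miRNAs, this places it among the other miRNAs and is not independent evidence of a change. The standard error (SE) beside a fold change describes the spread in the fit and is not a test.

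Small RNA was sequenced from untreated wild-type mice at embryonic day 16 (E16), at birth (P0) and at postnatal day 16 (P16), after hearing onset. The 10 cochlea libraries, 2 from E16, 4 from P0 and 4 from P16, came from sensory epithelium of C57BL/6JOlaHsd mice and were made with the SMARTer smRNA-Seq kit. The 11 SOC libraries, 4 from E16, 4 from P0 and 3 from P16, came from C57Bl6/J mice and were made with the TruSeq Small RNA kit. Samples pooled tissue from several animals, of both sexes. Organ, mouse substrain and kits coincide, so levels are not compared across organs, where kits and substrains cannot be told apart from the tissue, and time courses were described within each organ.

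Total counts per library ranged from 124400 to 447419 in the cochlea and from 8309669 to 18053698 in the SOC. The hair cell miRNAs miR-183-5p, miR-96-5p and miR-182-5p had a summed level of 16684 to 55846 CPM (counts scaled to a common library total) in the cochlea libraries. These 3 miRNAs were also counted in the SOC, where they summed to 85032 to 164652 CPM at E16, so they do not identify the organ here. The neuronal miRNAs miR-124-3p, miR-9-5p, miR-128-3p and miR-218-5p summed to 26704 to 118332 CPM in the SOC libraries. SOC libraries fell into 3 sets that ran across the stages and were defined from the counts of miRNAs outside the miR-193 and miR-365 families. Set A (replicates 2 and 3 of E16 and of P0) gave over 10% of its counts to miR-99b-5p, and set C (replicate 4 of P0, replicates 2 and 3 of P16) gave under 1% to miR-191-5p. Set B held replicates 1 and 4 of E16 and replicate 1 of both P0 and P16. No label names a batch for these sets.

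A miRNA precursor folds into a hairpin whose 5p and 3p strands are cut out as a short duplex. One strand, the guide, is retained in an Argonaute protein and pairs with target mRNAs mainly through its seed, the bases 2 to 8, while the passenger strand is mostly degraded. For miR-193a, miR-193b and miR-365 the 3p strand is usually regarded as the guide. The genes occur as a pair of related clusters, each with one miR-193 and one miR-365 hairpin, and have been studied in brown fat, muscle and cartilage cells.

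Mir193a and Mir365-2 lie on the + strand of chromosome 11 (GRCm38, chr11:79711969-79712034 and chr11:79726400-79726511), with 14365 bases between them. Both are intergenic in the annotation, to the right of Rab11fip4. Mir193b and Mir365-1 lie closer together on the + strand of chromosome 16 (chr16:13449523-13449601 and chr16:13453840-13453926), with 4238 bases between them. They overlap Gm15738, an antisense gene on the opposite strand, but none of its exons. The nearest coding genes there are Mrtfb to the left and Parn to the right.

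The mature sequences, from RefSeq on GRCm38.p6, show which products share a seed and which can be assigned to a locus. All 7 were matched by name. Each is written 5′ to 3′ with the seed in capitals.
miR-193a-3p: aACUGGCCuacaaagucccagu
miR-193b-3p: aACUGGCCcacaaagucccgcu
miR-365-3p: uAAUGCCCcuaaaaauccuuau
miR-193a-5p: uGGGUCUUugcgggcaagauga
miR-193b-5p: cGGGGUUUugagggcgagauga
miR-365-1-5p: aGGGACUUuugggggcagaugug
miR-365-2-5p: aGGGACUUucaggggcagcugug

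The 3p products of miR-193a and miR-193b have the same seed. They differ at 3 positions counted from the 5′ end, all outside it (U9C, A20G and G21C, with the miR-193a base first). Their 5p products differ at 5 positions, of which 2 lie in the seed (U5G and C6U). The miR-365-3p sequence is identical from both of its loci, so its counts cannot be divided between chromosomes 11 and 16. The 5p strands of the miR-365 hairpins share a seed but differ at 3 positions (U10C, G11A and A19C), which allows each to be assigned to its locus. Among the 1415 miRNAs of the table that could be given a sequence by name, no miRNA outside these 7 had one of their seeds.

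In the cochlea, both products of the miR-193b hairpin were induced after E16, with a larger fold change in the 5p strand than in the 3p strand. Counts were scaled by TMM, which corrects library totals for differences in composition. A miRNA was termed differentially expressed (DE) when its false discovery rate (FDR) was under 0.05, its fold change exceeded 1.5 and the replicates of the compared stages did not overlap. Of the 7 products 6 passed the detection filter in the cochlea, the exception being miR-193a-3p. A single count exceeded 1 CPM in each cochlea library (1.74 to 7.78 CPM after TMM). The filter, over 1 CPM in 2 libraries of a stage, thus also admitted miRNAs with very few counts. The products DE in P0 vs E16 were mmu-miR-193b-5p, mmu-miR-193b-3p and mmu-miR-365-3p, all induced. In that contrast 7.81% of all 896 miRNAs tested were DE and induced. In P16 vs E16 the DE products were both strands of miR-193b, again induced, against 10.9% of all miRNAs. In P16 vs P0 none was DE, against 10.5% of all miRNAs in either direction. In this last contrast miR-193b-5p and miR-365-2-5p had an unadjusted p under 0.05 by edgeR, and DESeq2 termed miR-193b-5p DE. Since these contrasts were known when the products were chosen, nothing is read from these shares.

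The 5p strand of miR-193b, usually regarded as the passenger, had 24.5 and 33.0 CPM in the E16 cochlea libraries. At P0 it had 299.5, 282, 443 and 349 CPM, and at P16 it had 546, 1074, 544 and 491 CPM. The stages were fully separated, each library of a later stage lying above every library of the earlier one. The group means were 28.8 ± 6.0 (SD, n = 2), 343 ± 72.1 (n = 4) and 664 ± 275 CPM (n = 4). The log2 fold change was 3.53 (SE 0.563) for P0 vs E16 and 4.48 (SE 0.586) for P16 vs E16. The difference between P16 and P0 was 0.95 (SE 0.373) and was not DE, although it became so without replicate 1 of P16 (0.98).

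The 3p strand of miR-193b, the usual guide, had 32.7 and 72.9 CPM at E16. It had 219, 297, 83.5 and 177 CPM at P0 and 184, 638, 312 and 230 CPM at P16. Every later library lay above both E16 libraries, while P0 and P16 overlapped. The log2 fold change was 1.85 (SE 0.546) for P0 vs E16, and this product was no longer DE without replicate 1 of E16 (1.47), while the value was 2.46 without replicate 2 of E16. It was 2.64 (SE 0.563) for P16 vs E16. In counts, the E16 group rested on 12 and 42 reads of miR-193b-3p, so its starting level rests on few counts.

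The product common to both clusters, miR-365-3p, varied more between replicates. Its level was 40.8 and 217 CPM at E16 and 273, 287, 424 and 449 CPM at P0. At P16 it was 1036 and 872 CPM in replicates 1 and 2 but 212 and 164 CPM in replicates 3 and 4. The P16 values therefore fell below and above all P0 values, and 2 of them lay below the higher E16 library. The log2 fold change for P0 vs E16 was 1.44 (SE 0.483). It was not DE without replicate 1 of E16 (0.74) or without replicate 4 of P0 (1.31), and it was 2.98 without replicate 2 of E16. By DESeq2 (1.47) and with all 21 libraries in one fit (1.45) it was not DE either. For P16 vs E16 the value was 2.12 (SE 0.497), and overlap kept it from being DE. It moved with single libraries, to 1.34 without replicate 1 of E16, where the FDR also missed its threshold, and to 1.52 without replicate 1 of P16. Without replicate 2 of E16 it was 3.58 and DE.

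**Figure D1:**
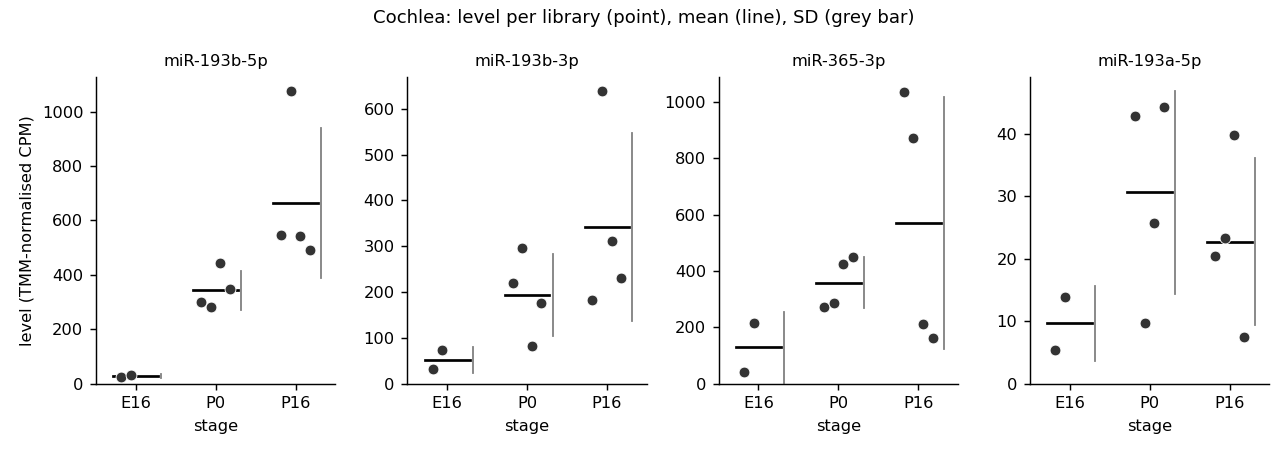
Levels of 4 products in the cochlea, in TMM-normalised CPM on linear axes, against stage. Each point is a library (sideways position only separates them), black lines are group means and grey bars are 1 SD, cut at 0. The stages of miR-193b-5p do not overlap, whereas miR-365-3p at P16 runs from 164 to 1036 CPM.

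The minor products were close to the counting limit in the cochlea, where single libraries gave 0 to 8 counts of each. The 5p strand of miR-193a had 2 and 8 counts at E16, 2 to 8 at P0 and 1 to 6 at P16. Its group means were 9.67 ± 5.97, 30.6 ± 16.3 and 22.8 ± 13.3 CPM, and the groups overlapped. The miR-365-1-5p strand had 2 and 4 counts at E16, 4 to 7 at P0 and 0 to 4 at P16. For P0 vs E16 its log2 fold change was 1.99, with groups that did not overlap but without being DE. For miR-365-2-5p only 1 count was found at E16, 8 at P0 and 0 at P16 over all libraries of a stage, and no fold change is given.

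The cochlear increases kept their direction with TMM, RLE and unscaled totals but differed in size. With library totals in place of TMM, the median log2 fold change of all miRNAs shifted by -0.38 for P0 vs E16 and by -0.50 for P16 vs E16. The P0 vs E16 change was then 3.07 for miR-193b-5p, 1.43 for miR-193b-3p and 0.99 for miR-365-3p, and only miR-193b-5p stayed DE. In that scaling P16 vs E16 gave 3.92 for miR-193b-5p and 2.06 for miR-193b-3p. RLE size factors shifted the median of all miRNAs by 0.08 for P16 vs E16 and gave 4.55 for miR-193b-5p and 2.71 for miR-193b-3p.

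Marker miRNAs of other tissues moved over the same stages. The cartilage list (miR-140-3p, miR-140-5p and miR-455-3p) summed to 6309 to 6636 CPM at E16, 16656 to 20597 at P0 and 25365 to 47818 at P16, but its miRNAs did not move together. In P0 vs E16, 1 of the 3 was DE and higher and 2 were DE and lower, and in P16 vs E16 1 was higher and none was lower. From this list miR-455-3p alone spanned 4245 to 46550 CPM over the cochlea libraries, so it made up much of the sum. The muscle list summed to 218 to 549 CPM at E16 and P0 and to 1097 to 4295 CPM at P16, where 2 of its 5 matched miRNAs were at 0. Of its 2 miRNAs tested, 1 was DE and lower in P0 vs E16 and 1 was DE and higher in P16 vs E16. The oligodendrocyte list (miR-219a-2-3p and miR-338-3p) summed to 13.9 to 32.7 CPM at E16, 6.42 to 66.5 CPM at P0 and 296 to 511 CPM at P16, and the 1 miRNA tested was DE and higher in P16 vs E16. The mesenchyme list summed to 47583 to 50873 CPM at E16, 52768 to 77631 CPM at P0 and 14577 to 27422 CPM at P16. Of its 4 matched miRNAs, 1 was DE and higher and 2 were DE and lower, both in P0 vs E16 and in P16 vs E16. In the neuron list 4 of 4 were DE and lower in P0 vs E16 and 3 in P16 vs E16. In the blood list 3 of 3 tested and then 2 were lower, and in the epithelium list 3 of 7 were lower in each contrast. None of these was higher, and no hair cell miRNA was DE in either contrast. The part of these tissues in the cochlear changes of miR-193b and miR-365 was not tested. In bulk tissue, a change in the number of cells of a type cannot be told apart from a change in RNA per cell.

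The arms of a hairpin can be compared within each library without any scaling, as shares of the hairpin's counts. In the cochlea the 3p strand held 57.1% and 68.9% of miR-193b counts in the E16 libraries. At P0 its share was 42.3%, 51.3%, 15.9% and 33.7%, and at P16 it was 25.2%, 37.3%, 36.4% and 31.96%. Both E16 libraries thus lay above all 8 later ones, and the 5p strand held the majority in 7 of these 8. The mean 3p share was 63.0% ± 8.28 (SD, n = 2), 35.8% ± 15.1 (n = 4) and 32.7% ± 5.54 (n = 4). These shares rested on 82, 393 and 589 counts over both arms at E16, P0 and P16. Pooled over libraries they were 65.9% (95% Wilson interval 55.1 to 75.2), 37.4% (32.8 to 42.3) and 33.3% (29.6 to 37.2). The intervals cover counting error only, since PCR copies were not told apart from separate molecules.

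In the SOC libraries the same hairpin was counted almost wholly on its 3p strand. The miR-193b 3p share was 99.25% or more in each of the 11 libraries, with means of 99.8%, 99.7% and 99.5% at E16, P0 and P16. Counts of miR-193b-5p never exceeded 34 in a SOC library, beside up to 9909 counts of miR-193b-3p. Since the organs were prepared with different kits, tissue and kit cannot be told apart in this gap in arm share. The lower 3p share of miR-193b after E16 was measured within the cochlea and within a single kit.

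For miR-193a the arms also stood apart between the organs, where tissue and kit again cannot be told apart. In the cochlea, miR-193a-3p gave 4 counts in replicate 2 of E16 and 0 counts in each of the other 9 libraries. The miR-193a-5p strand gave 22 counts at P0 and 14 at P16 in the same libraries. A 3p share of 0 of 22 counts at P0 allows up to 14.9%, and 0 of 14 counts at P16 allows up to 21.5% (95% Wilson upper bounds). In the SOC the 3p strand of miR-193a was the larger or equal one in all 11 libraries, with mean shares of 88.0% ± 6.23, 80.1% ± 16.4 and 66.1% ± 13.9. The lowest SOC share, 50.0%, was in replicate 3 of P16, where both arms together had 10 counts. Replicates 1 and 2 of P16 had 41 and 4 counts over both arms, so the P16 mean is imprecise.

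The miR-365 hairpins were counted mainly on the 3p strand in both organs. Their mean 3p share in the cochlea was 90.1% ± 9.59, 90.5% ± 0.778 and 94.8% ± 6.94 at E16, P0 and P16. In the SOC it was 97.6% ± 0.478, 98.6% ± 1.19 and 99.4% ± 1.10. The locus-specific 5p strands were few. Summed over libraries, miR-365-1-5p (chromosome 16) and miR-365-2-5p (chromosome 11) had 28 and 52 counts in the SOC at E16, 28 and 15 at P0, and 6 and 3 at P16. In the cochlea they had 6 and 1, 19 and 8, and 12 and 0 counts. In the cochlea miR-365-1-5p, from the locus next to Mir193b, had at least as many counts as miR-365-2-5p in each library. In the SOC at E16 the larger sum of miR-365-2-5p came from replicate 1, with 27 counts against 4 of miR-365-1-5p. The other E16 replicates had 11 against 11, 6 against 11 and 8 against 2, so no order of the loci is read there. These sums come from few counts, and how far 5p counts follow the output of a locus was not tested.

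**Figure D2:**
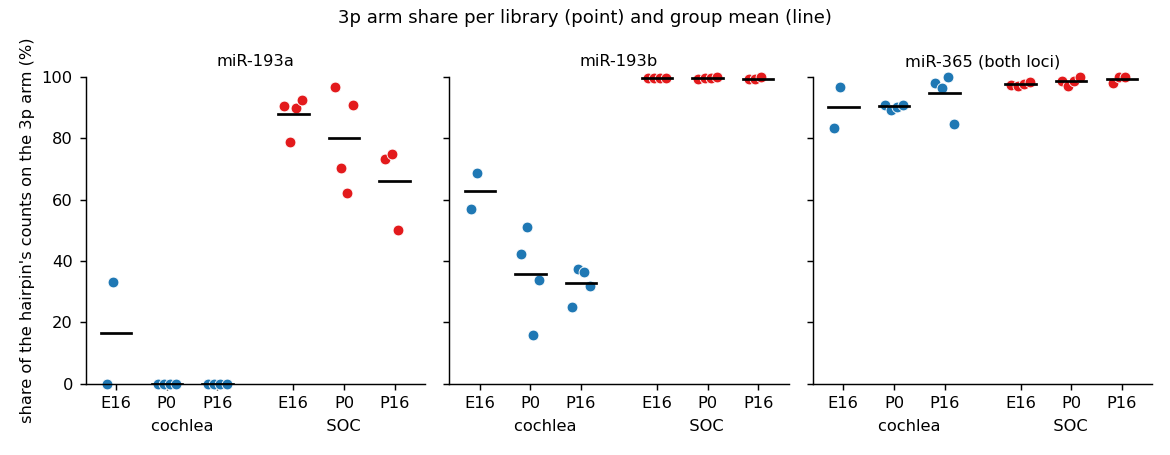
Share of each hairpin's counts on the 3p strand, in percent, for the cochlea (blue) and SOC (red) at each stage. Points are libraries and lines are group means. For miR-193b the cochlea points lie at 57.1% and 68.9% at E16 and at 51.3% or less later, while all SOC points lie at 99.25% or more.

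In the SOC the products of these clusters had lower mean levels at P16 than at E16, and for the more abundant ones the lowest libraries were those of set C. Of the 7 products 5 passed the detection filter, while miR-365-1-5p and miR-365-2-5p did not. The only DE product was mmu-miR-193a-3p, repressed in P16 vs E16. In that contrast 20% of all 694 miRNAs tested were DE and repressed. None was DE in P0 vs E16, against 6.63% of all miRNAs in either direction, or in P16 vs P0, against 16.1%. For P0 vs E16 no product had an unadjusted p under 0.05. DESeq2 also called none in either contrast, and in P16 vs P0 miR-193a-3p and miR-193b-3p had an unadjusted p under 0.05 by edgeR.

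The 3p strand of miR-193a had 19.9, 6.9, 6.3 and 14.2 CPM at E16 and 14.2, 5.1, 4.0 and 1.2 CPM at P0. At P16 it had 2.8, 0.3 and 0.5 CPM. All P16 libraries lay below all E16 libraries, and P0 overlapped with both. The log2 fold change for P16 vs E16 was -3.27 (SE 0.956). In a fit that includes the library set it was -2.45 (SE 0.432) and miR-193a-3p was again DE, in a fit in which 20.2% of all miRNAs were DE and repressed. Within set B, the only set with both stages, the level was 2.8 CPM in 1 library at P16 against a mean of 17.0 CPM in 2 libraries at E16, a log2 ratio of -2.59. The product was no longer DE without replicate 2 of P16 (-2.84) or without replicate 3 of P16 (-2.89). Without replicate 1 of P16 the change was -4.73, and 3 products were then DE.

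The 3p strand of miR-193b was the most abundant product in the SOC. It had 185, 572, 639 and 386 CPM at E16, then 285, 917, 686 and 40.9 CPM at P0, and 198, 14.1 and 10.5 CPM at P16. The 3 lowest libraries were those of set C, whatever their stage, and the P16 library of set B lay within the range of E16. The log2 fold change of miR-193b-3p for P16 vs E16 was -2.58 (SE 1.14) or, in the fit that includes the set, -0.82 (SE 0.344). Within set B it was -0.52. Without replicate 1 of P16, which leaves only set C at that stage, it was -5.07 and DE. For P16 vs P0 the value of miR-193b-3p was -2.70 (SE 1.14). This was DE without replicate 4 of P0 (-3.17) or replicate 1 of P16 (-5.24). Under either omission miR-193a-3p was DE as well (-2.73 and -3.85). With the set in the fit, P16 vs P0 gave -1.22 (SE 0.320) for miR-193b-3p and -1.98 (SE 0.409) for miR-193a-3p. Overlap of the replicates kept both from being DE. The log2 ratio of miR-193b-3p was -1.73 within set C (2 libraries against 1) and -0.52 within set B (1 against 1).

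The level of miR-365-3p separated set C from the other libraries most sharply. It was 65.9, 59.3, 69.6 and 49.6 CPM at E16 and 44.2, 58.8 and 60.4 CPM in the first 3 replicates of P0. Replicate 4 of P0 had 1.0 CPM, and the P16 libraries had 43.6, 1.1 and 0.4 CPM. The 8 libraries of sets A and B thus spanned 43.6 to 69.6 CPM over all stages, against at most 1.1 CPM in the 3 libraries of set C. The log2 fold change of miR-365-3p for P16 vs E16 was -2.02 (SE 1.35) and -0.44 (SE 0.337) in the fit that includes the set. Neither was DE. Without replicate 1 of P16 it was -6.29 and DE.

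**Figure D3:**
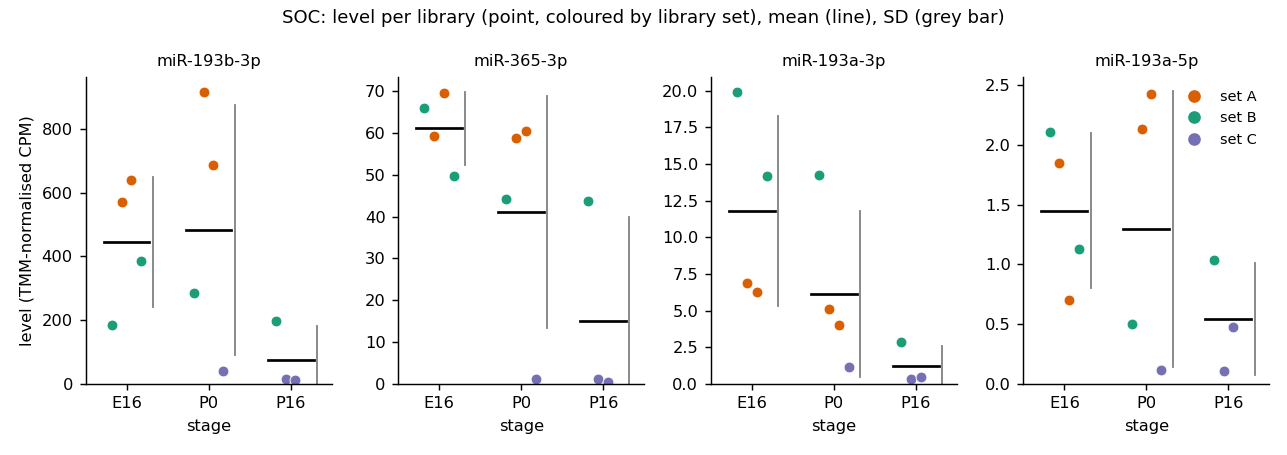
Levels of 4 products in the SOC, in TMM-normalised CPM on linear axes, against stage, with points coloured by library set. Black lines are group means and grey bars are 1 SD, cut at 0. The set C points of miR-193b-3p and miR-365-3p lie at the bottom at both P0 and P16, at most 40.9 and 1.1 CPM.

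The 5p strands of the miR-193 hairpins were at or below a few CPM in the SOC. The miR-193a-5p strand had 0.7 to 2.1 CPM at E16, 0.1 to 2.4 at P0 and 0.1 to 1.0 at P16. The miR-193b-5p strand had 0.6 to 2.0 CPM at E16, 0 to 2.5 at P0 and 0 to 1.2 at P16. The groups of both overlapped in each contrast. For P16 vs E16 the log2 fold changes were -1.40 (SE 0.924) for miR-193a-5p and -1.14 (SE 1.18) for miR-193b-5p, and in the fit that includes the set they were 0.02 and 0.91. The miR-365-2-5p strand had 27, 11, 6 and 8 counts at E16, 5, 10, 0 and 0 at P0 and 3, 0 and 0 at P16.

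Markers of other cells also changed between E16 and P16 in the SOC. The hair cell list summed to 85032 to 164652 CPM at E16 and to 521 to 3501 CPM at P16, with 3 of 3 miRNAs DE and lower. The cartilage list summed to 485 to 930 CPM and to 82.4 to 107 CPM, also with 3 of 3 lower. The oligodendrocyte list summed to 376 to 436 CPM and to 2573 to 7747 CPM, with 2 of 2 higher. The other lists moved in part, each with 4 miRNAs tested. In the epithelium, muscle and mesenchyme lists 3, 2 and 2 were DE and lower and none was higher. In the neuron list 1 was DE and higher and none was lower, and in the blood list 1 was higher and 1 lower. The neuron list nevertheless summed to 38285 to 118332 CPM at E16 and to 26704 to 43469 CPM at P16. The part of any of these in the values of miR-193 and miR-365 was not tested.

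The sets were compared in a model of stage and set. The same SOC libraries gave the time courses known when the products were chosen, and set C holds 2 of the 3 P16 libraries, so these differences are a description as well. Of the 5 products in the fit, 4 were lower in set C than in set B at an FDR under 0.05, as were 27.5% of all miRNAs. The log2 difference was -5.74 for miR-365-3p (SE 0.360), the fifth lowest of the 694 miRNAs. It was -4.87 for miR-193b-5p (SE 0.990), -3.51 for miR-193b-3p (SE 0.340) and -3.18 for miR-193a-3p (SE 0.411). For miR-193a-5p it was -2.24 (SE 0.919), which met the threshold only without replicate 3 or 4 of E16, replicate 1 of P0 or replicate 3 of P16 among the single omissions. For miR-193b-5p the difference was -4.22 without replicate 4 of P0, -7.14 without replicate 1 of P16 and -7.04 without replicate 2 of P16. Set C held 0 counts of miR-193b-5p in replicate 4 of P0 and replicate 3 of P16, and 1 count in replicate 2 of P16. The size of its difference is therefore set near the counting limit and is imprecise. The median over all miRNAs was 0.01.

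Between sets A and B, 2 of the 5 products met the threshold, in opposite directions, as did 16.9% of all miRNAs. The 3p strand of miR-193a was lower in set A, by a log2 difference of -1.44 (SE 0.270). The 3p strand of miR-193b, with the same seed, was higher by 1.09 (SE 0.281). The latter missed the threshold without replicate 2 or 3 of E16 or without replicate 1 or 2 of P0, with 0.87 to 1.13. The threshold for the sets was an FDR under 0.05 from edgeR (quasi-likelihood F test), adjusted over the 694 miRNAs by the Benjamini-Hochberg method. Stage and set overlap only in part, set C holding no E16 and set A no P16 library.

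The ratio of the main products also differed between the libraries. Counts of miR-193b-3p were 9.19 to 15.6 times those of miR-365-3p in set A, 2.80 to 7.78 times in set B and 13.3 to 39.1 times in set C. Set B thus lay below the other sets, which overlapped. The ratios of set C are imprecise, since its libraries had 9, 10 and 4 counts of miR-365-3p. In the cochlea, the ratio of miR-193b-3p to miR-365-3p was 0.177 to 1.47, measured with another kit and so not compared with the SOC. Of the counts carrying the miR-193 3p seed, miR-193b-3p made up 90.3% to 99.4% in the SOC libraries. In the cochlea it made up all of them except 4 counts at E16.

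The time courses of the organs were also set against each other in one fit of all 21 libraries, as the SOC change minus the cochlear change. Because the time course in each organ was known when the products were chosen, these differences are a description too. For P16 vs E16 the log2 difference was -5.79 (SE 1.31) for miR-193b-5p and -5.45 (SE 1.43) for miR-193b-3p. Both met the threshold of the fit, an FDR under 0.05, as did 5.87% of the 545 miRNAs tested in both organs with the lower value in the SOC. Nothing is read from this share. The difference was -4.49 (SE 1.72) for miR-365-3p and -2.83 (SE 1.31) for miR-193a-5p, which were not called. Without replicate 1 of the P16 SOC the values were -8.43 for miR-193b-5p and -7.83 for miR-193b-3p. The P16 SOC libraries then left held 1 and 0 counts of miR-193b-5p, so its value is imprecise. Without replicate 1 or without replicate 2 of the E16 cochlea, miR-193b-3p was no longer called (-4.88 and -6.06). Once the library set was in the fit, the differences were -3.99 (SE 0.841) for miR-193b-5p, -3.68 (SE 0.696) for miR-193b-3p and -2.95 (SE 0.892) for miR-365-3p, and these 3 products met the threshold. In the plot of fold changes, miR-193b and miR-365-3p had positive values in the cochlea, and their SOC values moved toward 0 or past it once the set was in the fit.

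In the other contrasts no product was called, either in P0 vs E16, where 11.9% of all miRNAs were, or in P16 vs P0, where 6.42% were. At P0 vs E16 the lowest difference was that of miR-193b-5p, -3.02 (SE 1.17), the only product with an unadjusted p under 0.05, and DESeq2 called 1 product. At P16 vs P0 it was that of miR-193b-3p, -3.54 (SE 1.17). Here miR-193b-5p too had an unadjusted p under 0.05, and DESeq2 called 2 products. Without replicate 4 of the P0 SOC libraries, miR-193b-5p was called at P0 vs E16 (-2.68) and both miR-193b products were called at P16 vs P0 (-3.09 and -3.86). Without replicate 1 of the P16 SOC libraries 3 products were called at P16 vs P0, at -5.41 for miR-193b-5p, -5.90 for miR-193b-3p and -6.42 for miR-365-3p. That omission gave -3.03 for miR-193b-5p at P0 vs E16 and -8.64 for miR-365-3p at P16 vs E16, both then called. Without replicate 3 of P16, miR-193b-5p was called at P0 vs E16 (-3.17). Without replicate 4 of P0, miR-365-3p was called at P16 vs E16 (-4.49).

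**Figure D4:**
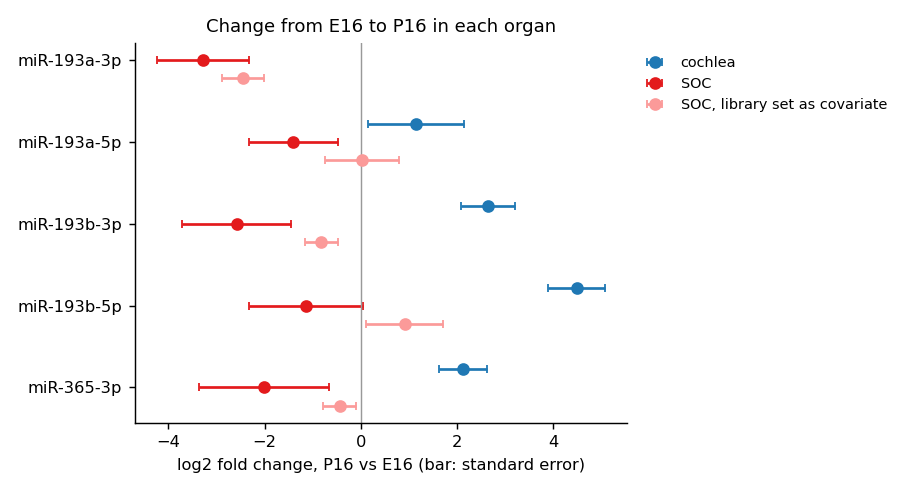
Log2 fold changes of 5 products for P16 vs E16 with their standard errors, for the cochlea, the SOC and the SOC fitted with the library set. No cochlear value is drawn for miR-193a-3p, which was not tested there. The cochlear values of miR-193b-5p and miR-193b-3p, 4.48 and 2.64, lie to the right of 0, and the SOC value of miR-193a-3p, -3.27, lies to the left in both fits.

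The products of a cluster followed each other to different degrees over the libraries. Over the 10 cochlea libraries Pearson's r of log2 CPM was 0.83 between both strands of miR-193b and 0.61 between miR-193b-3p and miR-365-3p (Spearman's rho 0.66 and 0.22). Over the 11 SOC libraries it was 0.94 between miR-193b-3p and miR-365-3p, but 0.46 over the 8 libraries outside set C. For miR-193a-3p and miR-193b-3p it was 0.79 over all SOC libraries and -0.38 without set C. The libraries share stage and set, so these values describe the libraries and carry no p.

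Among miRNAs averaging 100 CPM or more, those most like miR-193b-3p over the cochlea libraries were miR-7667-5p (r = 0.91) and the cartilage-enriched miR-455-3p (r = 0.90), of 240 candidates. Those most like miR-365-3p there were miR-184-3p (r = 0.87) and miR-145a-5p (r = 0.87), the latter known from smooth muscle and mesenchyme. Spearman's rho was 0.82 for miR-7667-5p, 0.84 for miR-455-3p, 0.64 for miR-184-3p and 0.88 for miR-145a-5p. In P0 vs E16, 2 of the 3 cartilage miRNAs and 2 of the 4 matched mesenchyme miRNAs were DE and lower. No tissue is therefore read from these neighbours. In the SOC, of 174 candidates, the most alike were miR-342-3p and miR-296-5p for miR-193b-3p (both r = 0.98, rho 0.95 and 0.90). For miR-365-3p they were miR-361-5p and miR-431-3p (both r = 0.99, but rho 0.77 and 0.33). For miR-193a-3p they were miR-381-3p and miR-384-3p (r = 0.96 and 0.95, rho 0.98 and 0.86). Without set C these neighbours changed to miR-296-5p and miR-99b-5p, to miR-345-3p and miR-28a-3p, and to miR-411-5p and miR-31-5p, in the same order. Of these 6 SOC neighbours, miR-296-5p alone was found both with and without set C.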

How the data were processed

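The 7 products and the marker lists were chosen with earlier results of these data known. The deposited table holds raw counts of reads per mature miRNA, not normalized by the authors. Their methods describe Bowtie alignment to MirGeneDB miRNAs, whereas the table uses miRBase names. The submitters' processing notes name Bowtie2 2.2.5, DESeq2 and mm10. How reads matching several miRNAs were counted is not given in the sources used here. Each column was matched to a sample by its title.

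Tests covered the miRNAs that exceeded 1 CPM in 2 or more libraries of one stage, and used edgeR 4.0.16 in R 4.3.3 (TMM, quasi-likelihood F test, Benjamini-Hochberg adjustment), with 1 fit per organ. P-values measure the spread between pooled libraries. The organ by time difference was fitted over all 21 libraries, and the SOC sets in a model of stage and set. The text names the 7 products, the 2 miRNAs most correlated with each 3p product (Pearson's r of log2 CPM, prior count 2) and the miRNAs defining the sets. DESeq2 1.42.0 was an alternative. Of the marker miRNAs, miR-133b-3p, miR-486a-5p and miR-199a-3p were not matched by name. The scripts were tested on simulated data. SOC libraries of E16 and P0 with the same replicate number deviated together in 4 of 4 pairs (r = 0.251 to 0.490), a pairing that comes from the values alone. Libraries of the same number in other stage pairs did not meet r over 0.1 in every pair. E16 and P0 libraries of unlike number but the same set gave r = 0.409 and 0.255 in set A and -0.010 in set B. The part of the sets in this pairing was not tested. No pair of replicates agreed within sampling noise.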

Additional observations from a re-analysis of the deposited data

Results flagged for a closer look

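Values stood apart within groups of 4 libraries by Dixon's test at the 5% level, where chance gives about 1 in 20. There were 28 such groups over the products, and those with 0 counts in every library could not be tested. In the P16 cochlea, replicate 2 had 1074 CPM of miR-193b-5p against 491 to 546 CPM in the others, a gap of 0.905 of the group's range. That library also had a TMM factor of 0.648, against 0.983 to 1.08 in the others. The part of this scaling in the gap was not tested. Replicate 3 of the E16 SOC had 2.0 CPM of miR-193b-5p against 0.6 to 0.8 CPM (0.869 of the range). Replicate 3 of the P0 cochlea had 44.9 CPM of miR-365-1-5p, or 7 counts, against 4 counts in each of the others (0.895 of the range).

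For both products of miR-193b the organ by time difference from E16 to P16 met the threshold of the fit. This is a description, since both time courses were known when the products were chosen. The SOC change minus the cochlear change was -5.45 on the log2 scale for miR-193b-3p and -5.79 for miR-193b-5p. With the library set in the fit these were -3.68 and -3.99. Without either E16 cochlea library miR-193b-3p was no longer called, and miR-193b-5p had at most 34 counts in a SOC library. Organ and kit coincide, so a difference between organs in how a level changed was measured with a separate kit for each organ.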

How the results depend on the processing

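Of the counts of DE or called products under alternatives other than leaving out a library, 68 of 82 stayed within 1.5 times the main count. Where they did not, the cause was not tested. For P0 vs E16 in the cochlea the count went from 3 to 1 with library totals and with all 21 libraries in one fit. With DESeq2 it was 2, and it ranged from 1 to 3 when single libraries were left out. For P16 vs P0 in the cochlea it went from 0 to 1 with RLE, with at least 10 counts and with DESeq2, and ranged from 0 to 1. For P16 vs E16 in the SOC it went from 1 to 2 with no filter and ranged from 0 to 3. For P16 vs P0 in the SOC it ranged from 0 to 2. The organ by time count for P0 vs E16 went from 0 to 1 with at least 10 counts, DESeq2 or the set covariate and ranged from 0 to 1. For P16 vs E16 it was 2 and ranged from 1 to 3. For P16 vs P0 it went from 0 to 1 with RLE, at least 10 counts or the set covariate and to 2 with DESeq2, and ranged from 0 to 3. For set C vs set B it went from 4 to 7 with no filter, which also admits the miR-365 5p products, and ranged from 4 to 5. For set A vs set B it was 2 and ranged from 1 to 2. The miR-365 3p share in the SOC at P16 was 98.2% from pooled counts.

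Signs that turned belonged to products that were not called. In the SOC these were miR-193b-3p at P0 vs E16 (0.11), with -0.34 under the replicate block, -0.0020 within set B and -0.38 to 0.56 when single libraries were left out, and miR-193a-5p at P0 vs E16 (-0.17), with 0.84 within set A and -0.71 to 0.24. With the set covariate miR-193a-5p was 0.016 at P16 vs E16 and 0.21 at P16 vs P0, and miR-193b-5p was 0.91 at P16 vs E16. Within set B miR-193b-5p was 0.93 at P16 vs E16 and miR-193a-5p 1.06 at P16 vs P0. The organ by time difference of miR-193a-5p at P16 vs P0 was 0.42 with the set covariate. In the cochlea miR-365-1-5p at P16 vs P0 (-0.41) ranged from -0.67 to 0.0043. The replicate block changed 1 call among the single products, the organ by time difference of miR-365-3p at P16 vs E16 (-6.97), and no count by over 1.5 times.

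The cochlea at E16 had 2 libraries, with 12 and 42 counts of miR-193b-3p and 9 and 19 of miR-193b-5p, and every cochlear change from E16 rests on them. Products with fewer than 10 counts per library have imprecise levels at this depth.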
